A study of Mus musculus with 2 samples.

Results

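The inflammasome genes examined here were 10 genes, namely the sensors Nlrp3, Nlrc4, Nlrp1b, Aim2, Mefv and Naip2, the adaptor Pycard, the caspases Casp1 and Casp4, and the pore-forming protein gene Gsdmd. They were chosen by their symbols, with earlier results of these data known. All 10 were found among the 22886 genes of the deposited tables, each on a single line. The tables hold sequencing of polyadenylated RNA from FACS-sorted cells, which the labels call aerobic tumor cells, of subcutaneous LLC (Lewis lung carcinoma) tumors of wild type C57BL/6 mice that had received an injection of either vehicle or clodronate. Clodronate kills phagocytes when given in liposomes, and its formulation here was not given in the sources used. Each injection had 1 library, and neither the age of the mice, the number pooled nor the gate of the sort was given in the sources used here. The growth protocol in the labels names a cultured blood progenitor line, which conflicts with the other labels.

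An inflammasome is a protein platform that forms in the cytosol of macrophages and other myeloid cells when a sensor detects a microbial product or cell damage. The sensor gathers the adaptor ASC (gene Pycard), which recruits and activates caspase-1, and active caspase-1 matures the cytokines IL-1β and IL-18 and cleaves gasdermin D, whose fragments open pores in the plasma membrane. In the noncanonical branch mouse caspase-11, encoded by Casp4, senses bacterial lipopolysaccharide and cleaves gasdermin D directly. Most of these steps act on proteins already made, so that RNA levels describe the supply of the parts and not whether an inflammasome was active.

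The values are RPKM, reads per kilobase of transcript scaled to the reads of the library, so that levels of different genes could be set side by side. Log2 ratios compare clodronate RPKM + 1 with vehicle RPKM + 1, so that positive values mean a higher clodronate level, and they were read for the 10982 genes whose values averaged 1 RPKM or more, called the genes kept. With 1 library per injection there was no replicate check and no test, and a gene was counted as called when it was at least 3-fold higher or lower. Both libraries were rich in macrophage RNA, with Lyz2 at 10534 and 11189 RPKM in the vehicle and clodronate libraries, and all 10 macrophage markers had at least 10 RPKM in both. The macrophage markers summed to 21306 and 20816 RPKM, with Lyz2 as the largest part of each sum. They did not move together, as 7 of the 10 were higher in the clodronate library and 3 lower. For instance, C1qc had 3984 and 2043 RPKM, while Fcgr1 had 22.5 and 42.3 RPKM. Of the epithelial markers Epcam, Krt19 and Sftpc had values of 0 throughout, and the list reached at most 6.44 RPKM, for Cdh1, while Krt8 had 3.67 and 1.33 RPKM and Krt18 had 2.97 and 3.19 RPKM. In such bulk samples fewer cells of a type and less RNA per cell cannot be told apart.

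Low values in the tables fell on steps that gave the worth of 1 read. Among loci with 1 transcript of known length, a read on 1 kilobase was worth 0.0726 RPKM with vehicle and 0.0889 RPKM with clodronate, which corresponds to libraries of about 13800000 and 11200000 reads. Of the low loci checked, 94.5% of 218 and 94.1% of 376 came out within 0.1 of a whole number of reads. The loci checked included loci of 1 read on which the step had been fitted, so this was not an independent check. Read numbers behind the members were estimated from these steps, and the 95% intervals of folds below are exact binomial intervals on them, which cover counting error only and say nothing of the spread between mice. Nlrc4, Aim2 and Pycard have no interval, since no reference transcript matched the span of their locus within 1%.

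All 10 inflammasome genes were expressed in both libraries, and none of them was called. At 3-fold the members numbered 0 higher and 0 lower in the clodronate library, beside 2.86% of all genes kept that were higher by this rule, 2.32% that were lower and 5.18% in either direction. At 2-fold, with the pseudocount of 1 RPKM, the members numbered 0 and 0, beside 6.95% higher and 6.77% lower among all genes kept. Naip2 lay at that limit, with a log2 ratio of -0.97, and was past it with a pseudocount of 0.1 RPKM (-1.01) and under upper-quartile scaling (-1.03). The median log2 ratio of the 10 genes was -0.03, beside 0.02 for all genes kept, with 4 genes above 0 and 6 below. Their levels summed to 345 RPKM with vehicle and 325 RPKM with clodronate. The values of all members by library show Nlrp3, Casp4 and Gsdmd at the top of the order in both libraries and Aim2 and Nlrc4 at the bottom, with Casp1 and Naip2 as the widest gaps.

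**Figure D1:**
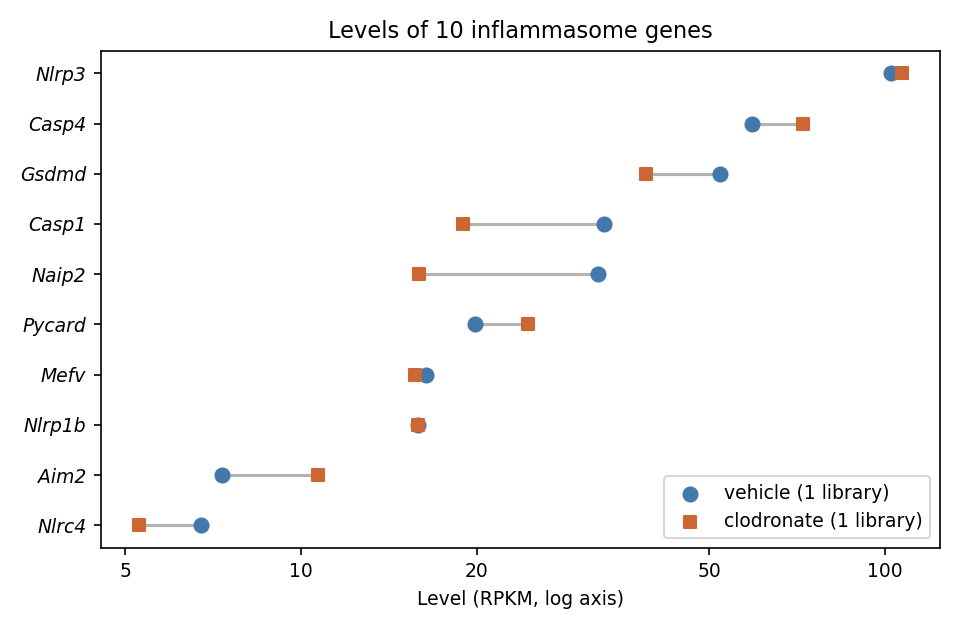
Level of each inflammasome gene (RPKM, log axis) in the vehicle library (circles) and the clodronate library (squares), 1 library each, in the order of the vehicle values. Nlrp3 had the highest level in both libraries (102 and 107 RPKM), and the widest gaps on the log axis were those of Naip2 (32.2 and 15.9 RPKM) and Casp1 (33.0 and 18.9 RPKM).

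Nlrp3, the sensor of potassium efflux, crystals and membrane damage, lies on chromosome 11 (chr11:59356188-59380458 in mm9, the build of all loci given here). It stood at 102 RPKM after vehicle and 107 RPKM after clodronate, within the top 7.18% and 6.97% of genes kept. From about 5377 and 4579 reads the clodronate level was 1.04-fold the vehicle level, with an interval of 1.003 to 1.09. It made up 29.7% of the summed level of the 10 genes in the vehicle and 32.9% in the clodronate library, so that the most abundant sensor was nearly level between the libraries. The log2 ratio of 0.06 became -0.0012 under upper-quartile scaling and -0.05 once trends with GC content and transcript length had been subtracted, so that the sign of this small difference was not stable.

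Nlrp1b encodes a sensor that anthrax lethal factor cleaves in some mouse strains, and Mefv encodes pyrin, a sensor that responds to certain bacterial toxins. Nlrp1b (chr11:70966604-71044235) had 15.9 RPKM in both libraries, a fold of 0.999 with an interval of 0.902 to 1.10. Mefv (chr16:3707215-3718124) had 16.3 RPKM with vehicle and 15.7 RPKM with clodronate, with an interval of 0.847 to 1.09 around a fold of 0.959. Both intervals include equal levels. The neighbour of Nlrp1b, its paralog Nlrp1a, lies 8397 bp away and had 10.6 and 5.08 RPKM, so that the level of Nlrp1b over that of Nlrp1a was 1.495 in the vehicle and 3.12 in the clodronate library.

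Aim2 binds double-stranded DNA in the cytosol. It had the highest ratio of the members, with 7.34 RPKM with vehicle and 10.7 RPKM with clodronate (chr1:175350735-175396167), a log2 ratio of 0.49. Of all genes kept 20.3% had a ratio at least as high. Nlrc4, the platform on which NAIP proteins assemble, had the lowest level of the 10 genes in both libraries, with 6.75 and 5.28 RPKM (chr17:74825635-74858448) and a log2 ratio of -0.30. These were the members with the fewest RPKM and, with Pycard, those without an interval.

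Naip2 had the lowest ratio of the members. It encodes the receptor for the rod protein of bacterial type III secretion systems, which then engages Nlrc4, and its locus is chr13:100914018-100972047. It stood at 32.2 RPKM after vehicle and 15.9 RPKM after clodronate, from about 2048 and 827 reads. The vehicle level was 2.02-fold the clodronate level, with an interval of 1.86 to 2.19, and the log2 ratio of -0.97 was matched or passed on the low side by 7.25% of all genes kept. The level of Naip2 over that of Nlrc4 was 4.77 in the vehicle and 3.01 in the clodronate library. The gap therefore lay outside counting error but well inside the 3-fold limit, and the spread between mice is not known.

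Mouse NAIP genes are near copies of each other, which bears on how reads were assigned to Naip2. The coding sequence of Naip2 was 89.99% identical to that of Naip5, 89.7% to Naip6 and 90.3% to Naip1 in GENCODE M21, and 19.4% of its stretches of 50 nt also occurred in a transcript of another gene, against 28.7% of stretches of 36 nt and 4.55% of stretches of 100 nt. The read length was not given in the sources used here. The following coding stretches of 90 nt are shown because they mark parts of Naip2 that can and cannot take reads of its paralogs. Among stretches aligned without gaps to Naip5, Naip6 and Naip1, they had the fewest and the most differences to Naip5 and Naip6 together. Of ties the earliest was taken, and capitals mark a base that differs from Naip2. In the first, positions 1747 to 1836 of the coding sequence of Naip2, Naip5 and Naip6 had 0 differences and Naip1 had 1.
Naip2: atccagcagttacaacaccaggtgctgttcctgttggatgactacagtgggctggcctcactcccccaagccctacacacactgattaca
Naip5: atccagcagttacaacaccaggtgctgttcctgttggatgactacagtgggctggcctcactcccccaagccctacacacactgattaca
Naip6: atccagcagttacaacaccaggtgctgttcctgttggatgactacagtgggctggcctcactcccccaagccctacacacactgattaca
Naip1: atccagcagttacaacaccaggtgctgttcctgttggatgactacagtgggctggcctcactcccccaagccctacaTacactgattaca
In the second, positions 2977 to 3066, Naip5 had 32 differences, Naip6 had 34 and Naip1 had 31.
Naip2: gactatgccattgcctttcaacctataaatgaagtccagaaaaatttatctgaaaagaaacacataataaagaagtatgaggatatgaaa
Naip5: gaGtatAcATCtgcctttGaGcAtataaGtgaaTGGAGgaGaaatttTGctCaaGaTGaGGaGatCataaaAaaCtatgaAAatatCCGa
Naip6: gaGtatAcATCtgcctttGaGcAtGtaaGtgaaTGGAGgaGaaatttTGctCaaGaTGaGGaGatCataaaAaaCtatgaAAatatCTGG
Naip1: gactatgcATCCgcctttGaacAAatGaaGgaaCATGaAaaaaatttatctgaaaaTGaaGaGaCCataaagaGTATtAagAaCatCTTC
A read from the first stretch could come from several of these genes, while in the second each paralog differs from Naip2 at many bases. Of the paralogs Naip5 and Naip6 were lower in the clodronate library too, but by less than Naip2. Naip5, a receptor for flagellin, had 14.7 and 11.7 RPKM and a log2 ratio of -0.31, and Naip6, also a flagellin receptor, had 17.5 and 12.8 RPKM and a log2 ratio of -0.42. Naip1, a receptor for the needle protein of secretion systems, had 1.41 and 1.88 RPKM. Summed over the 4 genes, which depends less on how reads were split among them, the level was 65.8 RPKM with vehicle and 42.3 RPKM with clodronate, 1.56-fold higher in the vehicle library.

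Pycard, the adaptor that links sensors to caspase-1, had 19.8 RPKM with vehicle and 24.4 RPKM with clodronate (chr7:135134887-135137381), a log2 ratio of 0.29. It stood below Casp1 and Naip2 in the order of the vehicle library and above both in that of the clodronate library. In its GENCODE transcript 11.8% of the stretches of 50 nt also occurred in another gene, mostly Gm45205. That transcript, of 3800 nt, is longer than the locus given above, so that these stretches may lie outside it. Whether reads counted for Pycard could come from Gm45205 was not tested. Nlrp3 RNA was 5.16 times as abundant per length as Pycard RNA in the vehicle and 4.37 times in the clodronate library.

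The neighbouring caspase genes stood on opposite sides of 0. Casp1 (chr9:5298517-5307281), the protease of the canonical platform, stood at 33.0 RPKM after vehicle and 18.9 RPKM after clodronate, and the vehicle level was 1.74-fold the clodronate level (interval 1.51 to 2.02, from about 587 and 275 reads). Casp4 (chr9:5308860-5336791), the lipopolysaccharide sensor of the noncanonical branch, had 59.0 RPKM with vehicle and 72.2 RPKM with clodronate, a clodronate level 1.22-fold that of the vehicle (interval 1.12 to 1.34, from about 1000 and 998 reads). The level of Casp1 over that of Casp4 was accordingly 0.558 in the vehicle and 0.262 in the clodronate library, and Casp4 was the more abundant of the pair in both. The third gene of the cluster, Casp12, was at 0 in the vehicle library against 0.074 RPKM with clodronate. After the median ratio of genes of like GC content and of like transcript length had been subtracted, the log2 ratio of Casp1 was -0.41 in place of -0.77 and that of Casp4 was 0.65 in place of 0.29, so that the sign of each was kept while the size of each depended on this step.

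Casp1 and Casp4 lie 1578 bp apart in mm9, but their reads were separable. Their coding sequences were 61.1% identical, neither shared a stretch of 36 nt with any other gene, and the longest run of identical bases in their alignment was 12 nt. That run, near the end of the coding sequence, is shown with its flanks, with differing bases in capitals.
Casp1: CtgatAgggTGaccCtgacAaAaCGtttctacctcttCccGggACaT
Casp4: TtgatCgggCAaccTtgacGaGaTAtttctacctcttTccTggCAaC
The 250 bases before the start of each gene are shown since the genes are neighbours whose ratios differed in sign. They are from RefSeq on GRCm38.p6, on the plus strand, chr9:5298267-5298516 for Casp1 and chr9:5308599-5308848 for the first of the starts listed for Casp4, and capitals mark matches to the motifs searched.
Casp1: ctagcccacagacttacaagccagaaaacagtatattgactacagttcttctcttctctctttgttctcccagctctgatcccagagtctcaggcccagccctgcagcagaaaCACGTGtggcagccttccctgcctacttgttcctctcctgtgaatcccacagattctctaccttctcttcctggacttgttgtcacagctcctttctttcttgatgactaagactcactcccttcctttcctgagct
Casp4: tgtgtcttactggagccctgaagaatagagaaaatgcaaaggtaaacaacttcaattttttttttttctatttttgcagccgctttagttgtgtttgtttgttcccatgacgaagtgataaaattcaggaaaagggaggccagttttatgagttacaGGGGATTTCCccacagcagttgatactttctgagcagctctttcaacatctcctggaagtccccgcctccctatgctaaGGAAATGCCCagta
Casp4 held 2 matches to the NF-kB motif (GGG, 2 free bases, TTTCC), at 93 and 14 bases before the start shown. The same matches lay 104 and 25 bases before its other listed start. This motif stood in 1.41% of the 32851 promoters of the same length. Casp1 held 1 match to the E-box CACGTG, at 137 bases before its start, found in 6.02% of promoters. The 9 members with a listed promoter had 12 promoters, of which 3 held the PU.1 motif GAGGAAGT (2.44% of all promoters). These belonged to Aim2, Nlrp1b and Pycard, and for Nlrp1b not every listed start had the match. Of the 12 promoters, 0 held the interferon-response motif made of GAAA, 2 free bases and GAAA (2.98%). Likewise 0 held the GAS motif TTCNNNGAA (7.02%), the AP-1 motif TGANTCA (6.75%) or the CRE motif TGACGTCA (1.55%). The second NF-kB form, made of GGAA, 2 free bases and TCCC (1.21%), was also held by 0. All motifs were read on both strands. A match of letters does not show that a factor was bound, and its absence from this window says nothing of the factor.

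Gsdmd, the pore former that acts after either caspase, stood at 52.2 RPKM after vehicle and 39.0 RPKM after clodronate (chr15:75692769-75697834). From about 1141 and 696 reads the vehicle level was 1.34-fold the clodronate level, with an interval of 1.22 to 1.47. It held the third place in level in both libraries. Ninj1, which ruptures the membrane after pore formation, had 201 and 227 RPKM.

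**Figure D2:**
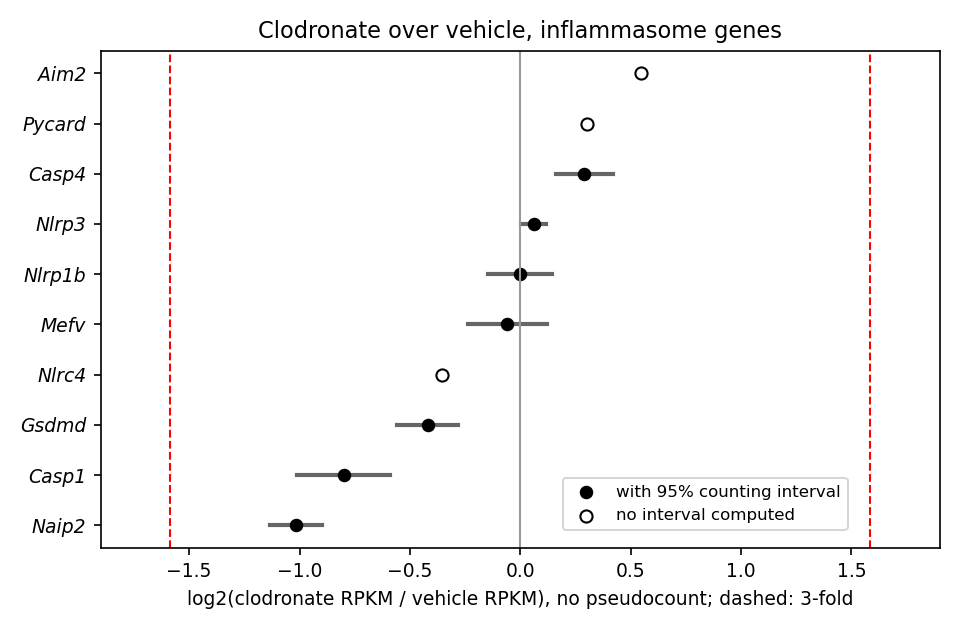
Log2 of clodronate over vehicle RPKM without a pseudocount for each inflammasome gene; bars are 95% counting intervals where they could be computed (7 of 10 genes), and dashed lines mark 3-fold. Every gene lay inside the dashed lines. The intervals of Naip2, Casp1 and Gsdmd lay below 0, those of Casp4 and Nlrp3 above it, and those of Nlrp1b and Mefv included it.

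The cytokine substrates of caspase-1, Il18 and Il1b, were lower in the clodronate library by more than any member. Of the 11 ligands, receptors and antagonists of the IL-1 family, 9 passed the filter, with 0 called higher and 1 called lower. Beside this, 2.86% of all genes kept were called higher and 2.32% lower. The 9 genes had 2 ratios above 0 and 7 below, and a median log2 ratio of -0.32. Il18 had 53.1 RPKM with vehicle and 13.3 RPKM with clodronate, so that the vehicle level was 3.999-fold higher (interval 3.20 to 5.01, from about 479 and 98 reads), and its log2 ratio was -1.92. With GC content and transcript length corrected for as above it was -1.496, short of 3-fold, and the call was lost. Il1b had 278 and 97.2 RPKM, a vehicle level 2.86-fold that of the clodronate library. Il33, an alarmin of the family, had 5.76 and 2.63 RPKM. Il1a, a ligand that does not need caspase-1, had 14.1 and 14.8 RPKM, and the antagonist Il1rn had 126 and 116 RPKM. The level of Il1b over that of its antagonist Il1rn was therefore 2.201 in the vehicle and 0.835 in the clodronate library, and that of Il18 over the binding protein Il18bp (23.6 and 18.7 RPKM) was 2.25 and 0.711. Both cytokine substrates thus stood above their antagonists in the vehicle library and below them in the clodronate library.

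Neutrophils carry Il1b RNA as well. Of the 9 neutrophil markers found, S100a9, Retnlg, Camp, Ngp and Elane were listed at 0 in both libraries, S100a8 was higher with clodronate (12.7 and 23.1 RPKM), and Csf3r (26.4 and 19.3 RPKM), Cxcr2 (4.06 and 2.69 RPKM) and Mmp8 (2.999 and 0.909 RPKM) were lower. The 9 summed to 46.1 and 46.0 RPKM. The 6 markers of recruited monocytes summed to 288 RPKM with vehicle and 429 RPKM with clodronate, with 4 of the 6 higher there. This difference was carried mostly by F13a1 (132 and 247 RPKM), the largest part of each sum, and by Plac8 (45.4 and 91.8 RPKM). Ccr2, at 48.5 and 37.8 RPKM, and Chil3, at 36.4 and 14.8 RPKM, were lower with clodronate. The fibroblast markers summed to 154 and 75.1 RPKM, with 5 of 6 lower in the clodronate library and Col1a1 higher there (2.32 and 5.40 RPKM). The dendritic cell markers summed to 6.77 and 13.04 RPKM, a difference carried by Cd209a (1.25 and 8.68 RPKM, past 3-fold), while Ccr7 had 3.36 and 2.31 RPKM and Flt3 was listed at 0 in the vehicle library. The part of these cells in the ratios of the inflammasome genes and of Il1b and Il18 was not tested.

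**Figure D3:**
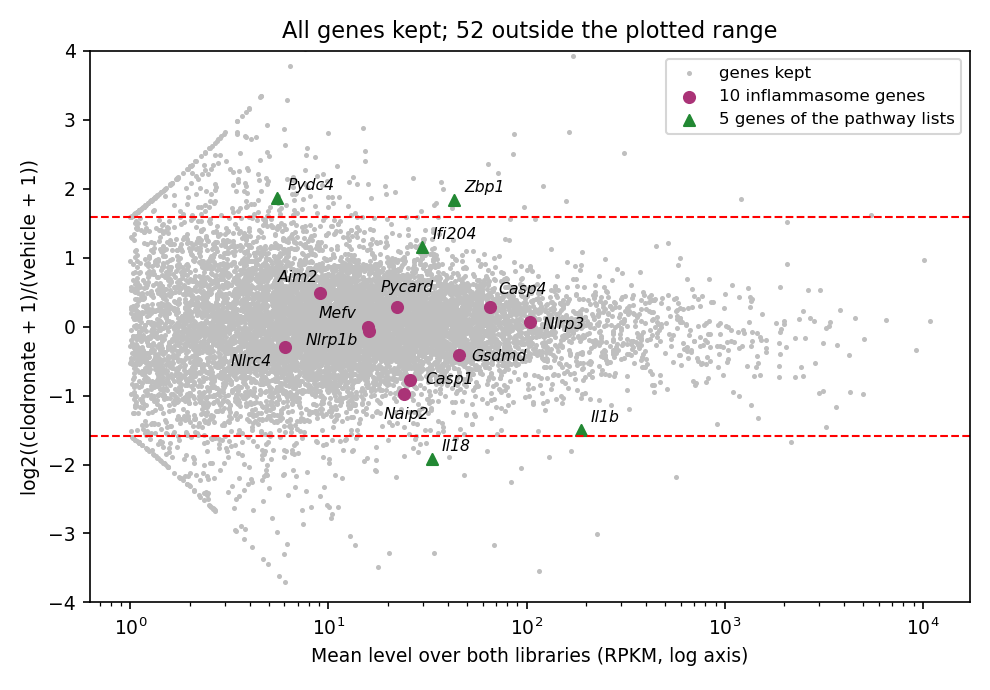
Log2 ratio of clodronate over vehicle (pseudocount of 1 RPKM) against the mean level (RPKM, log axis) for all 10982 genes kept, with the 10 inflammasome genes (circles) and 5 genes of the pathway lists (triangles); dashed lines mark 3-fold and 52 genes lay beyond the plotted range of 4 in either direction. The inflammasome genes lay inside the cloud of all genes, whose central 90% ran from -1.14 to 1.20, whereas Il18, Il1b, Pydc4 and Zbp1 lay outside that range.

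The DNA sensor Aim2 lies in the PYHIN cluster of chromosome 1, whose genes encode proteins of the same family. Of the 9 other PYHIN genes 8 passed the filter, with a median log2 ratio of 0.45. In this list 1 was called higher and 0 lower, beside 2.86% higher and 2.32% lower of all genes kept. Pydc4 was the gene called, with 1.795 and 9.16 RPKM (a call lost with a pseudocount of 5 RPKM), and Ifi204, which senses DNA, had 18.2 and 41.5 RPKM. The cluster was not uniform, as Mndal had 60.4 and 55.6 RPKM and Pyhin1 had 15.3 and 9.80 RPKM. Reads of these copies can be confused, since 30.2% of the stretches of 50 nt of Ifi204 and 20.1% of those of Pydc4 occurred in another gene, against 0.932% for Aim2.

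**Figure D4:**
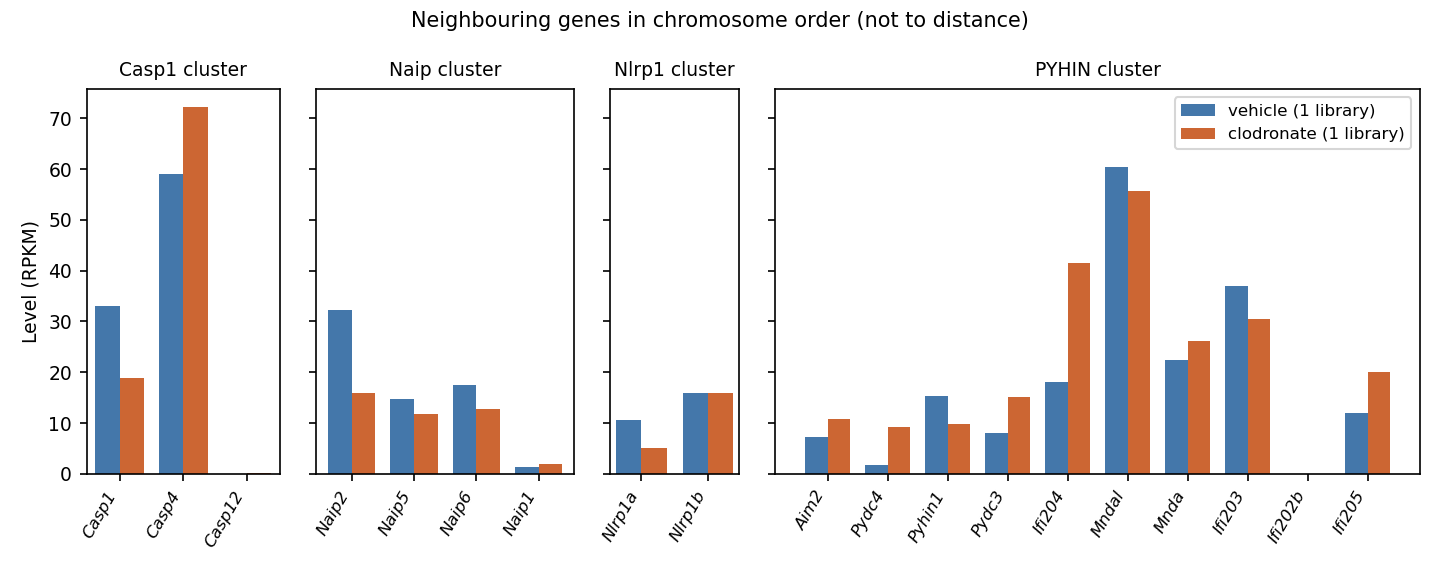
Level (RPKM) in the vehicle and clodronate libraries, 1 library each, of the genes beside Casp1, Naip2, Nlrp1b and Aim2, in chromosome order and not to distance. Casp1 and Naip2 were lower in the clodronate library while Casp4 (59.0 and 72.2 RPKM), Naip1 (1.41 and 1.88 RPKM) and Aim2 (7.34 and 10.7 RPKM) were higher, and Ifi204 (18.2 and 41.5 RPKM) had the widest difference in RPKM of the PYHIN genes, while the ratio was highest for Pydc4 (1.795 and 9.16 RPKM).

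Among 13 other NLR and NAIP genes 11 passed the filter, with a median log2 ratio of -0.10. In this list 0 were called in either direction, beside 5.18% of all genes kept. Nod1 and Nod2, receptors for fragments of the bacterial cell wall, had 2.06 and 5.84 RPKM and 7.13 and 12.8 RPKM, and Nlrc5, an activator of MHC class I genes, had 16.0 and 22.8 RPKM. These stood higher in the clodronate library, whereas Nlrp10, at 1.85 and 0.291 RPKM, had the lowest ratio of the list (log2 ratio of -1.14). Of 15 regulators of inflammasome assembly 14 passed the filter, with a median log2 ratio of 0.23. Here too 0 were called in either direction, beside the same 5.18% of all genes kept. Nek7, the kinase that binds Nlrp3, had 27.9 and 19.9 RPKM, P2rx7, the receptor for extracellular ATP, had 39.1 and 40.2 RPKM, and Txnip had 76.7 and 75.1 RPKM. Ctsb, a lysosomal protease released when crystals rupture lysosomes, was the most abundant gene of the list, with 2573 and 2811 RPKM. The guanylate-binding proteins of this list differed in sign, with Gbp5 at 3.22 and 8.99 RPKM and Gbp2 at 81.3 and 50.7 RPKM.

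Of 16 other caspases and cell death effectors 13 passed the filter, with a median log2 ratio of 0.18. In this list 1 was called higher and 0 lower, beside 2.86% higher and 2.32% lower of all genes kept. Zbp1, a sensor of Z-form nucleic acid that can start necroptosis, was the gene called, with 18.2 RPKM with vehicle and 67.6 RPKM with clodronate, a clodronate level 3.72-fold that of the vehicle (interval 3.26 to 4.26). Its partner kinase Ripk3 had 15.5 and 25.9 RPKM, and Mlkl, which permeabilizes the membrane in necroptosis, had 6.68 and 19.2 RPKM, 2.88-fold higher. Casp8, which links these pathways, had 59.6 and 49.2 RPKM, and Casp6 had 32.9 and 13.8 RPKM. Ripk1, the kinase upstream of Ripk3, had 23.9 and 24.9 RPKM.

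**Figure D5:**
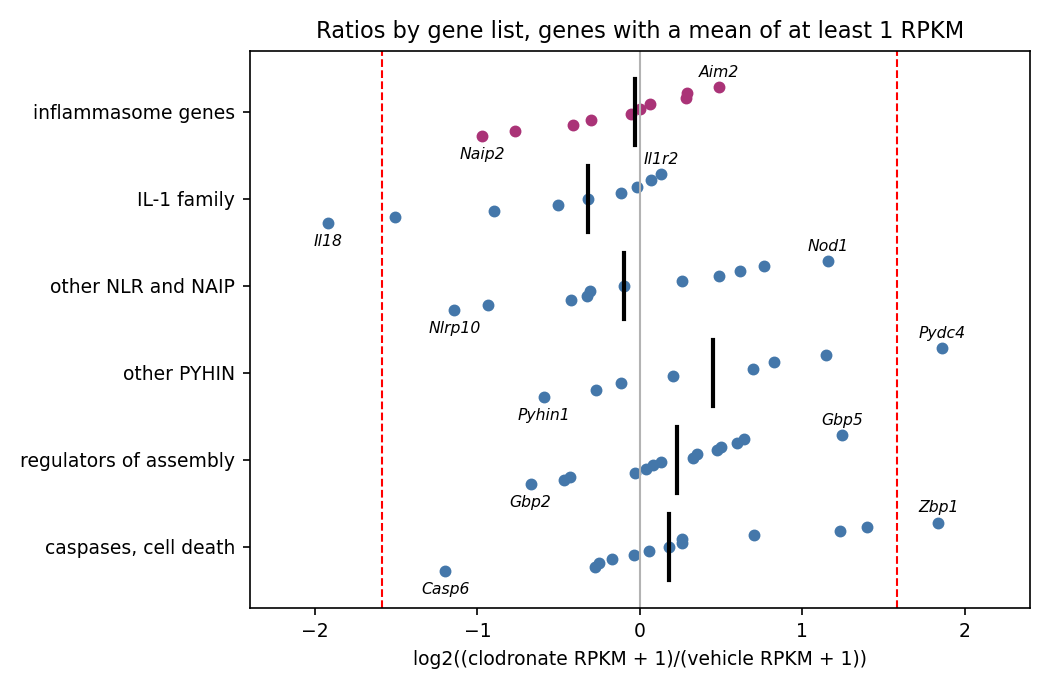
Log2 ratio of clodronate over vehicle (pseudocount of 1 RPKM) of each gene with a mean of at least 1 RPKM, by list; points are genes, black bars are list medians and dashed lines mark 3-fold. The inflammasome genes had a median of -0.03 and none passed 3-fold, and the genes past 3-fold in the other lists were Il18, Pydc4 and Zbp1. The share past 3-fold in either direction was 5.18% over all genes kept.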

How the data were processed

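RNA of sorted cells was measured in 2 libraries, 1 per injection, grouped by the sample descriptions in the labels. The deposited values are RPKM per gene locus, which the authors made. Their processing notes name CASAVA 1.8.2, TopHat2 2.0.9, Bowtie 0.12.9, Cufflinks 2.2.1 and Cuffdiff, and the build mm9. Reads had been scaled before deposit, so no count model was used. Starts of loci were raised by 1, because end minus start equalled the RefSeq gene length for 7728 of 21855 loci matched by symbol. For 497 it was 1 less, as starts counted from 1 would give, and the other loci fitted neither. For 26 loci whose symbol was a number the RefSeq accession served as name. Lines of a symbol were summed, and 10982 of 22886 genes averaged 1 RPKM or more.

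The worth of 1 read was fitted on loci with 1 accession and 1 GENCODE M21 transcript of the same genomic span (within 1%), with an end correction of 206 nt. Coordinates of mm9 and of GRCm38, the build of GENCODE M21 and of the RefSeq promoters, were never combined. Gsdmd had no promoter in the RefSeq table. The values of 1 gene of the lists are not reported here. The members and gene lists were chosen with earlier results of these data known. The rule for naming admitted all members and all genes on the lists. Adgre1 is listed as Emr1, and Ly6g was not found. The sums of T and NK cell, B cell and endothelial markers were 0.837, 1.10 and 2.37 RPKM in the vehicle and 1.13, 1.20 and 7.40 RPKM in the clodronate library. Alternatives were pseudocounts of 0.1 and 5 RPKM, omission of the filter, a filter at 5 RPKM, median centring, upper-quartile scaling, the highest line of a symbol and 2-fold as the limit. A correction for GC content and length, in which the median ratio within 10 bins was subtracted for each property in turn, was chosen after seeing the data. Steps were tested on simulated data. Python 3.11.15, numpy 2.4.6, pandas 2.3.3, scipy 1.17.1 and matplotlib 3.10.9 were used.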

Additional observations from a re-analysis of the deposited data

How the results depend on the processing

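No paired analysis was possible because neither injection had a replicate. Under each of the 9 alternatives 0 of the 10 inflammasome genes were called in either direction, where 2-fold was run with a pseudocount of 1 RPKM alone, and under the 8 recomputed for it their median log2 ratio lay between -0.09 and -0.02. Of 308 values recomputed, 37 moved, by more than 1.5 times for counts, the arm of the counting interval for genes that have one, or 0.1 on the log2 scale for other genes and medians, and none that was called changed sign. With a pseudocount of 0.1 RPKM 1 other NLR or NAIP gene, Nlrp10, was called lower, and with 5 RPKM 0 PYHIN genes were called higher. Without a filter the median log2 ratios were -0.12 (IL-1 family), 0.20 (NLR and NAIP) and 0.21 (PYHIN), and with the filter at 5 RPKM they were -0.12 (IL-1 family) and -0.32 (NLR and NAIP). At 2-fold the calls were 2 lower (IL-1 family), 1 higher and 1 lower (NLR and NAIP), 2 higher (PYHIN), 1 higher (regulators), and 3 higher and 1 lower (caspases and death effectors), beside 6.95% higher and 6.77% lower of all genes kept. With the correction for GC content and length, chosen after seeing the data, 0 IL-1 family genes were called lower, and the median log2 ratios were -0.22 (IL-1 family), -0.29 (NLR and NAIP), 0.87 (PYHIN), 0.11 (regulators) and 0.018 (caspases and death effectors). The cause of these shifts was not tested. The intervals give the limit that depth sets, while the spread between mice could not be estimated from 1 library per injection.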
